A study of Homo sapiens with 12 samples.

Results

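Histone lysine methyltransferases, the writers, and histone lysine demethylases, the erasers, were followed through neural induction of human embryonic stem cells. Genes were taken by symbol, as every member of the KDM, KMT, SETD, SETDB, NSD, EHMT and SUV39H families together with ASH1L, DOT1L, PHF2 and PHF8. This gave 50 of the 59050 genes in the count table, of which 28 were writers and 22 were erasers. The rule used symbols and no measured value, but it was set with earlier results of these data known. Enzymes of the same kind under other names, such as EZH2, JMJD1C and the PRDM and SMYD families, were not members and are described apart.

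Neural progenitor cells (NPC) were compared with the human embryonic stem cell line HUES8 (ESC) from which they were made, and all cells had the wild-type genotype. NPC had spent 7 days in neural induction medium with SB431542 at 2.5 uM, an inhibitor of activin and Nodal receptors that was left out for the last 2 days, and LDN193189 at 0.05 uM, an inhibitor of BMP receptors. ESC were held in mTeSR1 medium with 0 days of induction and without either inhibitor. Each cell state was measured in 3 libraries of total RNA depleted of rRNA and in 3 libraries of ribosome-bound RNA, which makes 12 libraries. All cells came from a single line, and the labels do not say whether libraries of a group came from separate cultures, so the p-values measure the spread between these libraries, which may be technical.

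Writers place methyl groups on particular lysines of histone H3 or H4, mostly through a SET domain that uses S-adenosylmethionine, and erasers remove them, either by flavin-dependent oxidation (KDM1A and KDM1B) or with a JmjC domain that needs iron, oxygen and 2-oxoglutarate. Methylation of H3K4 and H3K36 marks promoters, enhancers and transcribed gene bodies, while methylation of H3K9, H3K27 and H4K20 marks silent chromatin, and H3K79 methylation by DOT1L follows transcription. In stem cells that take up a neural fate, the removal of H3K27 methylation from neural genes by KDM6A and KDM6B and the deposition of H3K4 methylation by the KMT2 complexes are classical subjects of study.

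Promoter sequences are shown for the members whose RNA changed most, as the 150 bases just before the start that RefSeq's promoter table uses for the gene. They belong to the 3 with the largest rise (KDM6B, KMT5C and KDM3A) and the 2 with the largest fall (KDM4C and SETD4). The sequences are RefSeq's, on build GRCh38.p14, written 5′ to 3′ on the gene's own strand, and run to the last base before the start. Capitals mark the GC box, GGGCGG, and the CCAAT box, CCAAT, each searched on both strands.
KDM6B (chr17:7834067-7834216, plus strand): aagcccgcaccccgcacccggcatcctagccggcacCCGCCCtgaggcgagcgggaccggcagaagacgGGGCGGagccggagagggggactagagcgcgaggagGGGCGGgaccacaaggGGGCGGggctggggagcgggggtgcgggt
KMT5C (chr19:55339726-55339875, plus strand): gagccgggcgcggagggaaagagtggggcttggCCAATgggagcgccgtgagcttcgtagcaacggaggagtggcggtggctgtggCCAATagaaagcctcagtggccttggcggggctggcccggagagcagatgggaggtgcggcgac
KDM3A (chr2:86441221-86441370, plus strand): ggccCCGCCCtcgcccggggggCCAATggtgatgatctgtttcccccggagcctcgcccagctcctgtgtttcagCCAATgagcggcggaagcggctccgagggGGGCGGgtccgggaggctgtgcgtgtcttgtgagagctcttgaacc
KDM4C (chr9:6757823-6757972, plus strand): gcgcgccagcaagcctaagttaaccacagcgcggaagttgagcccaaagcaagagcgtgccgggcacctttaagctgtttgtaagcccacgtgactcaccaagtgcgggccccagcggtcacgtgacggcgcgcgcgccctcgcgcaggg
SETD4 (chr21:36060527-36060676, minus strand): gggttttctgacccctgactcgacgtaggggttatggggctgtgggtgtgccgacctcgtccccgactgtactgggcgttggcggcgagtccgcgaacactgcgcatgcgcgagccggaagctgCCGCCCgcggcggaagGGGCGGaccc
The windows of KDM3A and KDM4C lie inside the gene's RefSeq span, because the start in the promoter table is not the outer edge of that span.

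The stretch of KDM6B, whose RNA rose the most, held 4 GC boxes and no CCAAT box, and that of SETD4, whose RNA fell the most, held 2 GC boxes and no CCAAT box. KMT5C held 2 CCAAT boxes and no GC box, KDM3A held 2 of each, and KDM4C held neither. Over the 250 bases before the start, 33 of the 46 members found in the promoter table (71.7%) held a GC box, against 42.3% of all 27305 promoters of that table, and 14 (30.4%) held a CCAAT box, against 33.0%. No member held TATAAA in this window, while 11.1% of all promoters did. The members' windows had a median GC content of 66% (58% over all promoters) and a median CpG ratio, observed over expected, of 0.916 (0.556 over all promoters). A GC box stood in 20 of 25 writers and in 13 of 21 erasers. SETD1B, NSD3, DOT1L and KDM4E had no entry. A match of letters is not a binding site, and which start these cells used was not measured.

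RNA libraries held 19529738 to 35117370 counts and ribosome-bound libraries 2422756 to 4451196, so ribosome-bound values of weakly covered members rest on few counts. The RNA library ESC replicate 3 stood apart from the other ESC RNA libraries (Pearson's r of log2 CPM 0.976 and 0.972, against 0.996 between those), and the ribosome-bound library ESC replicate 2 stood apart in its assay (0.908 and 0.929, against 0.973). In that ribosome-bound library the members lay low as a group, the median member differing by -0.71 (log2) from the mean of the other ESC libraries and the median gene of the table by 0.04. For ESC replicates 1 and 3 of that assay the median member differed by 0.47 and 0.17. Marker levels went with the labels: 10 pluripotency markers summed to 5042 to 5213 CPM in NPC RNA and 11354 to 11650 CPM in ESC RNA. LIN28A made up most of the NPC sum, averaging 4475 CPM in NPC and 4726 CPM in ESC, and 9 of the 10 markers were called lower in RNA. The 10 neural progenitor markers summed to 1286 to 1361 CPM in NPC RNA and 491 to 561 CPM in ESC RNA. Neural crest markers (6 genes) summed to 185 CPM in each NPC RNA library, against 8.48 to 18.7 CPM in ESC. Neuron markers (8 genes) summed in RNA to 31.1 to 33.96 CPM in NPC and 81.9 to 109 CPM in ESC, and mesoderm and endoderm markers (7 genes) to 0.921 to 1.31 CPM in NPC and 11.7 to 13.3 CPM in ESC. On ribosomes the mesoderm and endoderm markers summed to 2.81 to 4.52 CPM in NPC and 262 to 290 CPM in ESC. The sums there were 648 to 715 CPM in NPC and 1990 to 3615 CPM in ESC for pluripotency markers. For neural progenitor markers they were 796 to 1082 CPM in NPC and 240 to 586 CPM in ESC. Neural crest markers reached 251 to 290 CPM in NPC and 28.6 to 37.8 CPM in ESC, and neuron markers 82.3 to 92.0 CPM in NPC and 121 to 186 CPM in ESC. No marker was at 0 counts in any group. The part of these other cell types in the results below was not tested.

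The enzyme genes as a set held a larger share of counts in NPC than in ESC, modestly in RNA and strongly in ribosome-bound RNA. They held 0.803% to 0.811% of all RNA counts in the NPC libraries, against 0.626% to 0.694% in the ESC libraries. Among ribosome-bound counts they held 0.557%, 0.630% and 0.597% in the NPC libraries, against 0.301%, 0.161% and 0.265% in the ESC libraries. The groups did not overlap in either assay. In bulk samples such as these, fewer cells that express a gene and less RNA of it per cell cannot be told apart.

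In RNA, 19 of the 48 members tested were higher in NPC, 3 were lower and 26 did not pass (edgeR quasi-likelihood test, Benjamini-Hochberg adjusted p under 0.05 over all genes). Over all genes tested, 26.4% were called higher and 26.2% lower, and the median log2 fold change, NPC over ESC, was 0.20 for the members and 0.03 for all genes. Without the RNA library ESC replicate 3, 28 members were higher and 12 lower, with a median of 0.25, beside 34.9% of all genes higher and 34.7% lower in that fit. Writers then had 15 higher and 7 lower, and erasers 13 higher and 5 lower. Of the 28 writers, 8 rose and 2 fell, with a median of 0.09. The share of writers higher, 28.6%, lay near the 26.4% of all genes, and the share lower was 7.14%, beside 26.2%. Of the 20 erasers tested, 11 rose and 1 fell, with a median of 0.40. These classes include 7 SET-domain genes and KDM8, whose histone targets are not settled. Without them 6 of 21 writers rose and 0 fell in RNA, and 10 of 19 erasers rose and 1 fell. KDM4E and KDM4F had too few counts to be tested. Levels are given in CPM, counts scaled to library size with TMM factors and not to gene length, and each log2 fold change has its standard error.

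In ribosome-bound RNA, 29 of the 47 members tested were higher in NPC, 3 were lower and 15 did not pass, beside a background of 31.6% of all genes called higher and 30.3% lower. The median log2 fold change was 1.29 for the members and -0.01 over all genes tested. Of the 28 writers 20 rose and 3 fell, with a median of 1.82, while 9 of the 19 erasers tested rose and none fell, with a median of 0.78. Among the risen writers, SETDB2, KMT5A and SETD7 had 12, 16 and 22 ribosome-bound counts over the 3 ESC libraries. They passed the filter on counts through the NPC libraries alone, so a fall could not have been called for them. Among members with a settled histone target, 17 of 21 writers rose and 1 fell, and 9 of 18 erasers rose and 0 fell. No eraser was lower there at an unadjusted p under 0.05 in edgeR either, nor by DESeq2 or limma-voom, and 1 was lower without the ribosome-bound library ESC replicate 2. Without that library, 30 members were higher and 5 lower, and the median was 1.12, beside 34.8% of all genes higher and 33.3% lower.

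The ratio of ribosome-bound RNA to RNA is called translational efficiency in what follows, although the sources used here do not give how ribosomes were isolated. Its change was tested over all 12 libraries as an interaction term of a single fit. The ratio was higher in NPC for 23 of 47 members and lower for 3, beside 22.9% of all genes called higher and 19% lower, with a median log2 change of 0.84 for the members and -0.05 over all genes. Among the writers 16 rose and 2 fell, with a median of 1.50, and among the erasers 7 rose and 1 fell, with a median of 0.53. SETDB2 and KMT5A, counted as risen here, passed the ribosome-bound filter through the NPC libraries alone. With a settled histone target, 14 of 21 writers rose and 1 fell, and 7 of 18 erasers rose and 0 fell. Without the ribosome-bound library ESC replicate 2 alone, the median log2 change of the ratio was 0.60 for the members and 0.002 over all genes. With both libraries that stand apart left out, an alternative chosen after seeing the data, 26 members were higher and 8 lower and the median was 0.75, beside 29.5% of all genes higher and 29.3% lower. KDM3A, KDM3B, KDM5B and SETD3 were then lower, and EHMT2, KMT2B and KMT5C higher, where they had not passed with all libraries. The log2 ratio itself had a median over members of -0.55 in NPC and -1.35 in ESC, against -0.23 in NPC and -0.37 in ESC over all genes tested. This comparison uses the same libraries as the RNA and the ribosome-bound comparisons and is no independent support for them.

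**Figure D1:**
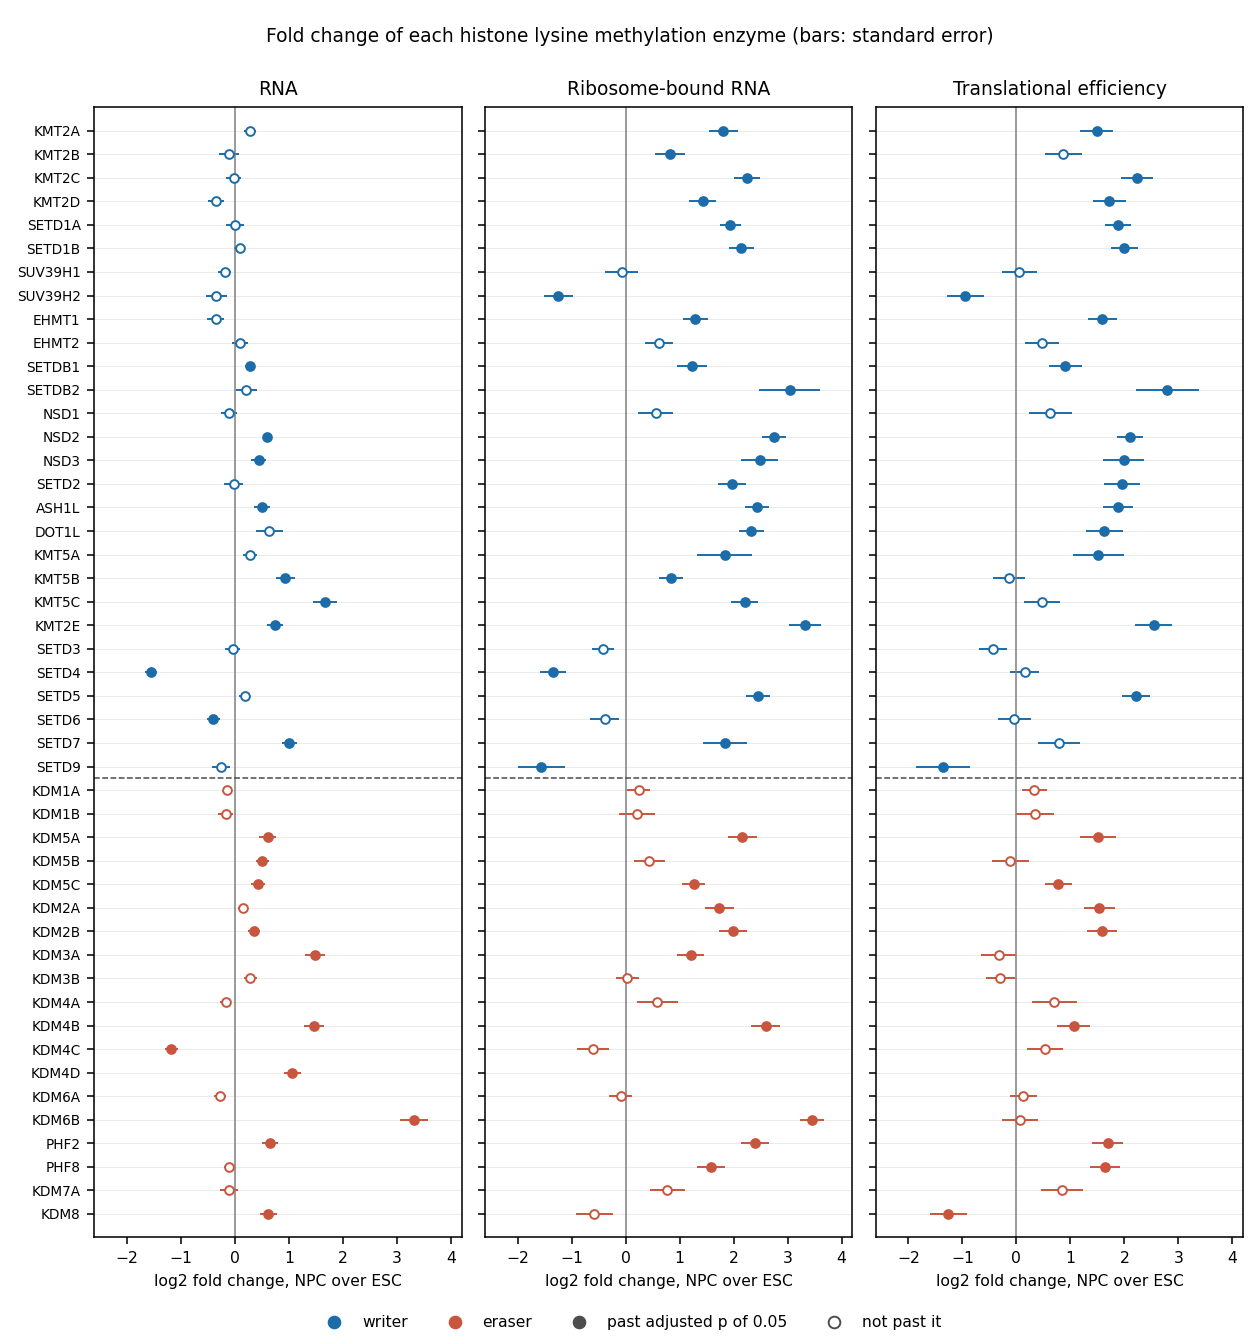
Log2 fold change, NPC over ESC, of each member tested (rows, writers above the dashed line and erasers below it) in RNA, ribosome-bound RNA and their ratio, with standard errors as bars and filled points for adjusted p under 0.05. Most writers sit near 0 in RNA and between 1 and 3 in ribosome-bound RNA, while KDM6B sits above 3 in both assays and at 0.07 in the ratio.

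The members fell into a few patterns over the 3 comparisons. In 10 of them RNA, ribosome-bound RNA and their ratio all rose (ASH1L, KDM2B, KDM4B, KDM5A, KDM5C, KMT2E, NSD2, NSD3, PHF2 and SETDB1). In 13 others the RNA did not pass the test while ribosome-bound RNA and the ratio rose (DOT1L, EHMT1, KDM2A, KMT2A, KMT2C, KMT2D, KMT5A, PHF8, SETD1A, SETD1B, SETD2, SETD5 and SETDB2). Ribosome-bound RNA rose with the RNA, and the ratio did not pass, in 5 (KDM3A, KDM6B, KMT5B, KMT5C and SETD7). No comparison passed for 10 members (EHMT2, KDM1A, KDM1B, KDM3B, KDM4A, KDM6A, KDM7A, NSD1, SETD3 and SUV39H1).

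**Figure D2:**
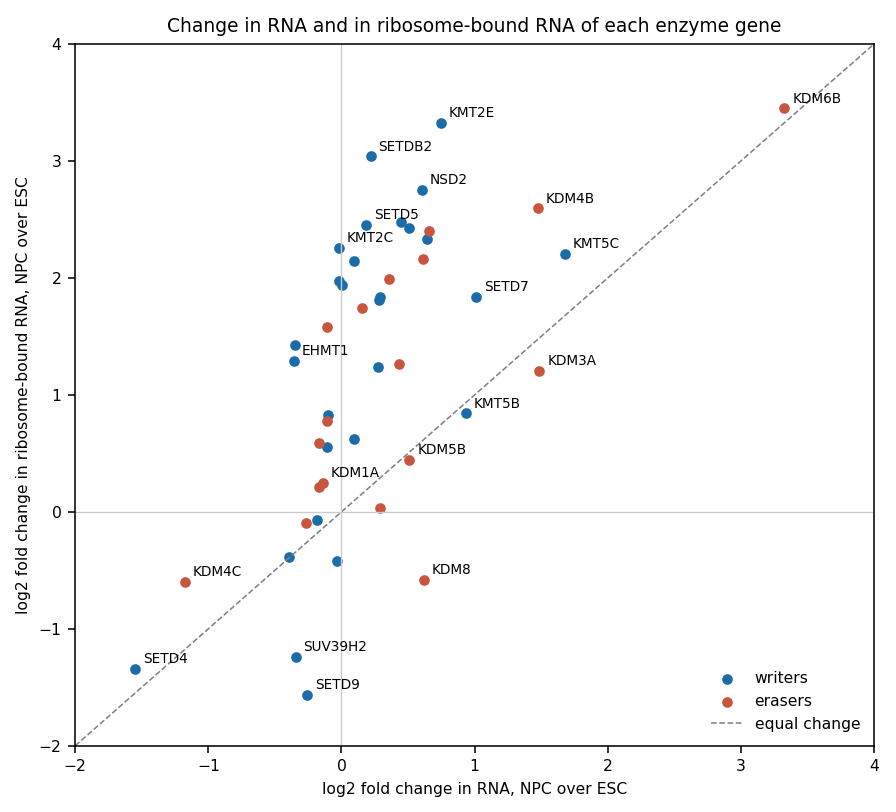
Log2 fold change in RNA (horizontal axis) and in ribosome-bound RNA (vertical axis), NPC over ESC, of the members tested in both assays, with writers in blue, erasers in red and a dashed line of equal change. Most points lie above the line, KDM6B, KDM3A, KMT5B and SETD4 lie near it, and KDM8, SUV39H2 and SETD9 lie furthest below it.

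The background for the counts of each enzyme group is 26.4% of all genes higher and 26.2% lower in RNA. On ribosomes it is 31.6% higher and 30.3% lower. The 6 writers of H3K4 methylation were all higher on ribosomes in NPC while none passed the test in RNA, with a median log2 fold change of -0.01 in RNA and 1.88 in ribosome-bound RNA. At an unadjusted p under 0.05 in edgeR, 1 was higher and 1 lower in RNA, and DESeq2 and limma-voom called 0. KMT2A and KMT2B (MLL1 and MLL2) methylate promoters and are known for keeping HOX genes active. KMT2A RNA stood at 185, 204 and 203 CPM in NPC, against 159, 145 and 184 CPM in ESC, without overlap. Ribosome-bound KMT2A stood at 102, 148 and 122 CPM in NPC, against 45.2, 22.1 and 37.8 CPM in ESC, every NPC library being above every ESC library. Its log2 fold change was 0.28 ± 0.11 (adjusted p = 0.0694) in RNA, 1.81 ± 0.26 (adjusted p = 1.09e-04) in ribosome-bound RNA and 1.49 ± 0.30 (adjusted p = 0.00123) in their ratio. KMT2B averaged in RNA 81.4 ± 7.72 CPM in NPC, against 87.1 ± 21.2 CPM in ESC. Ribosome-bound KMT2B averaged 68.4 ± 11.04 CPM in NPC, against 38.2 ± 14.7 CPM in ESC (SD, n = 3 each), and its ribosome-bound change of 0.83 ± 0.28 (adjusted p = 0.0215) did not pass without NPC replicate 2, at 0.85 (adjusted p = 0.0548), or NPC replicate 3, at 0.72 (adjusted p = 0.0918).

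KMT2C and KMT2D (MLL3 and MLL4) place H3K4 mono-methylation at enhancers. KMT2C RNA stood at 152, 167 and 169.7 CPM in NPC, against 157, 137 and 201 CPM in ESC, with the groups overlapping. Ribosome-bound KMT2C stood at 119, 131 and 122 CPM in NPC, against 31.1, 16.5 and 29.4 CPM in ESC. The ribosome-bound groups did not overlap, at a log2 fold change of 2.25 ± 0.24 (adjusted p = 1.19e-05), and the ratio changed by 2.23 ± 0.30 (adjusted p = 3.66e-05). KMT2C shares exons with duplicated copies elsewhere in the genome, so its counts depend on how reads with several matches were counted, which the sources used here do not give. KMT2D RNA stood at 384, 361 and 346 CPM in NPC, against 516, 514 and 358 CPM in ESC, ESC replicate 3 being the low ESC library and within the NPC range. Ribosome-bound KMT2D stood at 150.4, 199.9 and 183 CPM in NPC, against 88.9, 45.5 and 62.9 CPM in ESC. The RNA change of -0.35 ± 0.15 (adjusted p = 0.0810) passed as a fall when replicate numbers were used as a block, at -0.33 (adjusted p = 0.0440), whereas ribosome-bound RNA rose by 1.43 ± 0.25 (adjusted p = 4.14e-04) and the ratio by 1.72 ± 0.30 (adjusted p = 3.57e-04).

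SETD1A and SETD1B carry most H3K4 tri-methylation at active promoters. SETD1A RNA stood at 69.1, 66.9 and 61.6 CPM in NPC, against 71.4, 76.1 and 49.9 CPM in ESC. Ribosome-bound SETD1A stood at 105, 97.1 and 100.3 CPM in NPC, against 29.2, 22.1 and 26.98 CPM in ESC. SETD1B RNA stood at 86.4, 79.7 and 73.4 CPM in NPC, against 74.4, 76.3 and 73.3 CPM in ESC. Ribosome-bound SETD1B stood at 108, 129.7 and 114 CPM in NPC, against 27.96, 18.6 and 32.1 CPM in ESC. For both genes the RNA groups overlapped and the ribosome-bound groups did not. Ribosome-bound RNA rose by 1.94 ± 0.20 (adjusted p = 7.52e-06) for SETD1A and by 2.15 ± 0.23 (adjusted p = 1.14e-05) for SETD1B on the log2 scale, with ratio changes of 1.88 (adjusted p = 2.54e-05) for SETD1A and 2.00 (adjusted p = 2.03e-05) for SETD1B. Without the RNA library ESC replicate 3, 5 of these 6 genes passed in RNA. They were KMT2A at 0.38 (adjusted p = 1.15e-06), KMT2B at -0.29 (adjusted p = 2.66e-04), KMT2C at 0.15 (adjusted p = 0.0458), KMT2D at -0.50 (adjusted p = 2.82e-10) and SETD1A at -0.16 (adjusted p = 0.0360). KMT2C and SETD1A thereby turned sign, against -0.02 for KMT2C and 0.0015 for SETD1A with all libraries.

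**Figure D3:**
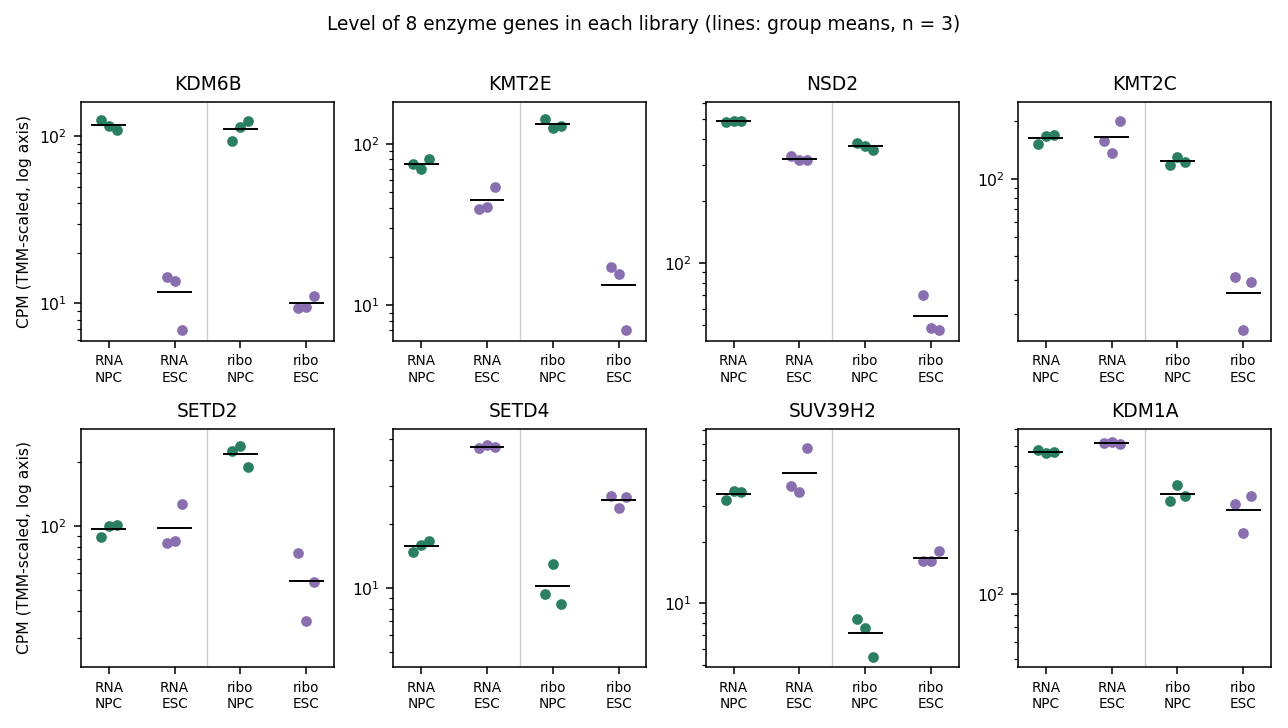
CPM (TMM-scaled, logarithmic axis with its own range in each panel) of 8 members in every library, NPC in green and ESC in purple, with RNA on the left and ribosome-bound RNA (ribo) on the right of each panel, and lines at group means of 3 libraries. KDM6B and SETD4 differ in both assays, KMT2C and SETD2 overlap in RNA and differ in ribosome-bound RNA, and KDM1A lies close between the states in both.

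Of the 6 writers of H3K9 methylation, 3 rose and 1 fell in ribosome-bound RNA, beside 31.6% of all genes higher and 30.3% lower. In RNA SETDB1 rose and the others did not pass, beside 26.4% of all genes higher and 26.2% lower. SETDB1, which tri-methylates H3K9 at retroelements with its partner TRIM28, averaged in RNA 129.7 ± 5.70 CPM in NPC, against 107 ± 3.23 CPM in ESC. Ribosome-bound SETDB1 averaged 92.2 ± 4.60 CPM in NPC, against 38.8 ± 16.00 CPM in ESC (SD, n = 3 each). Its log2 fold change was 0.28 ± 0.09 (adjusted p = 0.0316) in RNA, 1.23 ± 0.28 (adjusted p = 0.00224) in ribosome-bound RNA and 0.91 ± 0.31 (adjusted p = 0.0263) in the ratio. The small RNA call of SETDB1 ended when ESC replicate 1 or 2 or any NPC replicate was left out (0.24 to 0.31, adjusted p = 0.0781 to 0.140), with relative log expression scaling, at 0.25 (adjusted p = 0.0512), and with DESeq2, at 0.25 (adjusted p = 0.0553). So did the ratio's call when RNA NPC replicate 2 or 3 or ribosome-bound NPC replicate 2 was left out (0.85 to 0.90, adjusted p = 0.0559 to 0.0727).

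SETDB2, a relative of SETDB1, was weakly covered. Its RNA stood at 7.93, 8.42 and 8.56 CPM in NPC, against 6.08, 6.27 and 9.10 CPM in ESC, overlapping, and its change of 0.22 (adjusted p = 0.353) passed without ESC replicate 3, at 0.43 (adjusted p = 0.00563). On ribosomes it had 44, 38 and 35 counts in the NPC libraries and 8, 0 and 4 counts in the ESC libraries, which is 14.2, 10.7 and 7.98 CPM in NPC, against 2.51, 0 and 1.08 CPM in ESC. The ribosome-bound log2 fold change of 3.04 ± 0.57 (adjusted p = 6.56e-04) therefore rests on 12 counts in ESC, and leaving out ESC replicate 1 of that assay moved it to 3.97 and the ratio's change of 2.79 (adjusted p = 0.00150) to 3.76. Without both libraries that stand apart the ratio's change was 2.10.

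EHMT1 and EHMT2 (GLP and G9a) form the dimer that mono- and di-methylates H3K9 in euchromatin, and only EHMT1 passed. EHMT1 RNA stood at 167, 169 and 161 CPM in NPC, against 235, 243 and 158 CPM in ESC, overlapping. Ribosome-bound EHMT1 stood at 440.2, 396 and 460.3 CPM in NPC, against 205, 127 and 197 CPM in ESC, where every NPC library was the higher. Its log2 fold change was -0.35 (adjusted p = 0.0977) in RNA, 1.29 ± 0.23 (adjusted p = 4.47e-04) in ribosome-bound RNA and 1.59 ± 0.27 (adjusted p = 3.05e-04) in the ratio, and the RNA change passed as a fall without ESC replicate 3, at -0.53 (adjusted p = 6.46e-11). EHMT2 averaged in RNA 269 ± 11.1 CPM in NPC, against 252 ± 51.7 CPM in ESC. Ribosome-bound EHMT2 averaged 146 ± 3.90 CPM in NPC, against 94.6 ± 33.98 CPM in ESC (SD, n = 3 each), where its change of 0.62 ± 0.26 (adjusted p = 0.0537) lay just beyond the threshold, and passed with any ESC replicate of the assay left out (0.34 to 0.79, adjusted p = 0.0285 to 0.0444) and with limma-voom, at 0.70 (adjusted p = 0.0408). Whether the changes of EHMT1 and EHMT2 differ from each other was not tested.

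SUV39H1 and SUV39H2 tri-methylate H3K9 in constitutive heterochromatin, and SUV39H2 was the H3K9 writer that fell. SUV39H1 averaged in RNA 22.4 ± 0.611 CPM in NPC, against 25.4 ± 2.21 CPM in ESC. Ribosome-bound SUV39H1 averaged 12.2 ± 2.82 CPM in NPC, against 12.6 ± 4.38 CPM in ESC (SD, n = 3 each). SUV39H1 changed by -0.18 (adjusted p = 0.242) in RNA and -0.07 (adjusted p = 0.856) on ribosomes. SUV39H1 passed in RNA without ESC replicate 3, at -0.25 (adjusted p = 0.00941). SUV39H2 averaged in RNA 34.1 ± 1.79 CPM in NPC, against 43.4 ± 12.5 CPM in ESC, with overlap. Ribosome-bound SUV39H2 averaged 7.15 ± 1.51 CPM in NPC, against 16.7 ± 1.18 CPM in ESC (SD, n = 3 each), with NPC wholly below ESC. SUV39H2 shares part of its span with DCLRE1C. Its ribosome-bound log2 fold change was -1.24 ± 0.27 (adjusted p = 0.00172), and that of the ratio -0.95 ± 0.34 (adjusted p = 0.0367), which missed the threshold in 8 of 12 cases with a library left out (-1.01 to -0.77, adjusted p = 0.0524 to 0.114) and with limma-voom (adjusted p = 0.0590).

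Writers of H3K36 methylation formed the group with the largest ribosome-bound median, 2.43 on the log2 scale, among the writer groups of 3 or more genes. In ribosome-bound RNA 4 of 5 members were higher, beside 31.6% of all genes, and in RNA 3 of 5, beside 26.4%. NSD2, which di-methylates H3K36 and is lost in Wolf-Hirschhorn syndrome, stood in RNA at 488, 491 and 490.4 CPM in NPC, against 332, 318 and 318 CPM in ESC. Its ribosome-bound RNA stood at 385, 371 and 354 CPM in NPC, against 69.8, 48.1 and 46.9 CPM in ESC. Neither pair of groups overlapped, and the log2 fold change was 0.60 ± 0.08 (adjusted p = 4.11e-04) in RNA, 2.75 ± 0.22 (adjusted p = 1.78e-06) in ribosome-bound RNA and 2.10 ± 0.24 (adjusted p = 9.56e-06) in the ratio.

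NSD3 stood in RNA at 104, 109 and 113 CPM in NPC, against 75.7, 67.8 and 95.5 CPM in ESC. Ribosome-bound NSD3 stood at 72.3, 58.4 and 56.7 CPM in NPC, against 17.6, 4.77 and 10.3 CPM in ESC, NPC being above ESC in every library of both assays. NSD3 changed by 0.45 ± 0.14 (adjusted p = 0.0254) in RNA, by 2.48 ± 0.34 (adjusted p = 6.46e-05) in ribosome-bound RNA and by 1.99 ± 0.38 (adjusted p = 7.00e-04) in the ratio, and its RNA call ended with any library but ESC replicate 3 left out (0.31 to 0.48, adjusted p = 0.0591 to 0.133). NSD1, the third of this family and the gene of Sotos syndrome, passed in no comparison. NSD1 averaged in RNA 488 ± 27.2 CPM in NPC, against 526 ± 105 CPM in ESC. Ribosome-bound NSD1 averaged 183 ± 18.9 CPM in NPC, against 124 ± 59.2 CPM in ESC (SD, n = 3 each), and its ribosome-bound change was 0.56 (adjusted p = 0.152). The difference between NSD1 and its relatives was not tested.

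SETD2, which places H3K36 tri-methylation along transcribed genes, stood in RNA at 88.97, 100.4 and 102 CPM in NPC, against 83.3, 84.9 and 127 CPM in ESC, where ESC replicate 3 was above all others. On ribosomes it stood at 226, 238 and 189 CPM in NPC, against 74.5, 35.99 and 54.8 CPM in ESC, with no overlap. The log2 fold change was -0.02 ± 0.17 (adjusted p = 0.940) in RNA, and 0.21 (adjusted p = 0.00680) without ESC replicate 3, which turned its sign, while ribosome-bound RNA rose by 1.97 ± 0.26 (adjusted p = 5.04e-05) and the ratio by 1.95 ± 0.33 (adjusted p = 2.81e-04). ASH1L, a Trithorax-group writer of H3K36 di-methylation, stood in RNA at 77.9, 76.3 and 86.1 CPM in NPC, against 49.9, 50.3 and 68.7 CPM in ESC. Ribosome-bound ASH1L stood at 57.8, 64.9 and 51.3 CPM in NPC, against 10.4, 9.11 and 12.4 CPM in ESC. ASH1L rose by 0.51 ± 0.15 (adjusted p = 0.0202) in RNA, by 2.43 ± 0.22 (adjusted p = 3.89e-06) in ribosome-bound RNA and by 1.88 ± 0.28 (adjusted p = 8.71e-05) in the ratio, and the RNA call ended without ESC replicate 1 or 2 or NPC replicate 1 or 3 (0.39 to 0.53, adjusted p = 0.0556 to 0.119).

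DOT1L, the writer of H3K79 methylation, stood in RNA at 128, 121 and 104 CPM in NPC, against 85.3, 95.7 and 45.5 CPM in ESC, NPC being above ESC throughout and ESC replicate 3 being the lowest library. The RNA change of 0.64 ± 0.25 (adjusted p = 0.0618) missed the threshold, but passed in 8 of the 14 alternatives run. It passed with DESeq2, at 0.62 (adjusted p = 0.0338), with limma-voom, at 0.69 (adjusted p = 0.0476), with upper-quartile scaling, at 0.69 (adjusted p = 0.0392), and with no filter on low counts, at 0.64 (adjusted p = 0.00474). So it did in the fit over all 12 libraries, at 0.66 (adjusted p = 0.0216), with the replicate block, at 0.70 (adjusted p = 0.00764), and without ESC replicate 2, at 0.83 (adjusted p = 0.0261), or ESC replicate 3, at 0.38 (adjusted p = 7.21e-06). Ribosome-bound DOT1L stood at 129, 149.7 and 161 CPM in NPC, against 35.5, 31.2 and 21.04 CPM in ESC, without overlap, for a log2 fold change of 2.33 ± 0.23 (adjusted p = 7.17e-06) and a ratio change of 1.63 ± 0.34 (adjusted p = 0.00134). Its span overlaps those of AP3D1 and PLEKHJ1.

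The 3 writers of H4K20 methylation were all higher in ribosome-bound RNA in NPC. KMT5C, which with KMT5B adds the di- and tri-methyl marks of silent chromatin, stood in RNA at 37.9, 38.5 and 32.8 CPM in NPC, against 13.5, 13.1 and 7.51 CPM in ESC. Ribosome-bound KMT5C stood at 33.6, 41.6 and 45.1 CPM in NPC, against 10.1, 9.54 and 6.74 CPM in ESC. Both assays separated the groups, with log2 fold changes of 1.68 ± 0.22 (adjusted p = 4.45e-04) in RNA and 2.20 ± 0.25 (adjusted p = 1.69e-05) in ribosome-bound RNA, and the ratio's change of 0.47 (adjusted p = 0.261) passed without RNA ESC replicate 3, at 0.69 (adjusted p = 0.0360). KMT5B averaged in RNA 74.8 ± 3.48 CPM in NPC, against 39.2 ± 10.1 CPM in ESC. Ribosome-bound KMT5B averaged 46.6 ± 7.10 CPM in NPC, against 25.96 ± 5.15 CPM in ESC (SD, n = 3 each). KMT5B rose by 0.93 ± 0.18 (adjusted p = 0.00280) in RNA and 0.84 ± 0.22 (adjusted p = 0.00585) on ribosomes. KMT5A, the mono-methylase of H4K20, stood in RNA at 18.4, 17.2 and 19.6 CPM in NPC, against 14.3, 16.5 and 14.4 CPM in ESC. Ribosome-bound KMT5A stood at 5.81, 6.18 and 6.84 CPM in NPC, against 3.46, 0.867 and 0.809 CPM in ESC, without overlap.

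The ribosome-bound values of KMT5A came from 18, 22 and 30 counts in NPC and 11, 2 and 3 counts in ESC. Its log2 fold change there was 1.84 ± 0.51 (adjusted p = 0.00828), moved to 2.86 without ESC replicate 1, and its ratio change of 1.52 ± 0.47 (adjusted p = 0.0167) moved to 2.57 without that library and did not pass without ESC replicate 3, at 1.09 (adjusted p = 0.0761). In RNA KMT5A changed by 0.29 (adjusted p = 0.0976), which passed without ESC replicate 3, at 0.25 (adjusted p = 0.0272). Pseudogenes with near-identical sequence can take or give KMT5A reads, depending on the counting.

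The 7 genes with a SET domain but no settled histone target had 3 members higher and 2 lower in ribosome-bound RNA, and 2 higher and 2 lower in RNA. The RNA shares, 28.6% higher and 28.6% lower, lay near those of all genes, 26.4% and 26.2%. The ribosome-bound shares were 42.9% higher and 28.6% lower, beside 31.6% and 30.3% of all genes. KMT2E, a reader of H3K4 methylation whose SET domain is thought inactive, stood in RNA at 75.4, 69.2 and 80.2 CPM in NPC, against 39.6, 40.5 and 53.7 CPM in ESC. Its ribosome-bound RNA stood at 141, 124 and 129 CPM in NPC, against 17.3, 15.6 and 7.01 CPM in ESC, the lowest ESC value being in replicate 3. KMT2E rose by 0.75 ± 0.14 (adjusted p = 0.00307) in RNA, by 3.33 ± 0.29 (adjusted p = 3.02e-06) in ribosome-bound RNA, the largest writer rise there, and by 2.54 ± 0.34 (adjusted p = 3.79e-05) in the ratio. KMT2E and SETD5 are related proteins and both are genes of neurodevelopmental disorders. SETD5 stood in RNA at 476, 481 and 486 CPM in NPC, against 406, 387 and 477 CPM in ESC, where the groups overlapped. Ribosome-bound SETD5 stood at 326, 325 and 335 CPM in NPC, against 72.3, 45.1 and 62.3 CPM in ESC, where they did not. SETD5 changed by 0.19 (adjusted p = 0.156) in RNA, passing without ESC replicate 3 at 0.28 (adjusted p = 8.30e-05), by 2.45 ± 0.22 (adjusted p = 3.64e-06) in ribosome-bound RNA and by 2.22 ± 0.25 (adjusted p = 1.01e-05) in the ratio.

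SETD7, first described as an H3K4 methyltransferase and better known for methylating non-histone proteins, stood in RNA at 35.5, 39.4 and 40.9 CPM in NPC, against 18.05, 17.3 and 22.03 CPM in ESC. Ribosome-bound SETD7 stood at 8.07, 8.98 and 8.66 CPM in NPC, against 3.77, 1.30 and 1.89 CPM in ESC, where ESC rests on 22 counts. SETD7 rose by 1.01 ± 0.14 (adjusted p = 5.16e-04) in RNA and by 1.84 ± 0.41 (adjusted p = 0.00206) in ribosome-bound RNA, and its ratio change of 0.79 (adjusted p = 0.116) passed without ribosome-bound ESC replicate 1, at 1.31 (adjusted p = 0.0223). SETD4 was the writer with the largest fall in RNA. SETD4 averaged in RNA 15.8 ± 0.945 CPM in NPC, against 46.1 ± 0.755 CPM in ESC. Ribosome-bound SETD4 averaged 10.2 ± 2.37 CPM in NPC, against 25.9 ± 1.75 CPM in ESC (SD, n = 3 each), without overlap. SETD4 fell in both assays, with log2 fold changes of -1.55 ± 0.11 (adjusted p = 1.81e-05) in RNA and -1.34 ± 0.24 (adjusted p = 5.33e-04) on ribosomes and a ratio change of 0.15 (adjusted p = 0.661).

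SETD9 fell on ribosomes and its RNA change of -0.26 (adjusted p = 0.238) did not pass. SETD9 stood in RNA at 8.68, 9.57 and 8.03 CPM in NPC, against 9.71, 9.10 and 12.6 CPM in ESC, with overlapping groups. Ribosome-bound SETD9 stood at 8.71, 3.93 and 4.10 CPM in NPC, against 10.7, 27.3 and 11.9 CPM in ESC, where all NPC libraries lay below all ESC libraries and ESC replicate 2 was the highest. Its ribosome-bound log2 fold change was -1.56 ± 0.44 (adjusted p = 0.00825), and that of the ratio -1.36 ± 0.49 (adjusted p = 0.0368), which did not pass in 8 of 12 cases with a library left out (-1.41 to -0.84, adjusted p = 0.0511 to 0.109) or with the replicate block, at -1.32 (adjusted p = 0.0558). SETD9 shares its span with MIER3, and the sources used here do not give whether strand was used in counting. SETD6, which methylates the NF-kappa-B subunit RELA, fell in RNA by 0.40 on the log2 scale (adjusted p = 0.0267), a call that ended without ESC replicate 1 or any NPC replicate (-0.42 to -0.37, adjusted p = 0.0814 to 0.112). SETD3, a histidine methyltransferase of actin, changed by -0.03 (adjusted p = 0.861) in RNA and -0.42 (adjusted p = 0.0967) in ribosome-bound RNA, and passed as lower on ribosomes without ESC replicate 2, at -0.49 (adjusted p = 0.0190).

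Among the erasers, the H3K27 demethylase KDM6B (JMJD3) had the largest change among the members tested. KDM6B RNA stood at 126, 116 and 109.6 CPM in NPC, against 14.5, 13.6 and 6.90 CPM in ESC, ESC replicate 3 being the lowest. Ribosome-bound KDM6B stood at 93.6, 113 and 123 CPM in NPC, against 9.43, 9.54 and 11.1 CPM in ESC. All NPC libraries were above all ESC libraries in both assays. The log2 fold change was 3.33 ± 0.26 (adjusted p = 2.80e-05) in RNA and 3.45 ± 0.22 (adjusted p = 4.61e-07) in ribosome-bound RNA, and the ratio changed by 0.07 (adjusted p = 0.885). Its relative KDM6A (UTX), a subunit of the KMT2C and KMT2D complexes, did not pass. KDM6A averaged in RNA 101 ± 3.29 CPM in NPC, against 122 ± 14.2 CPM in ESC. Ribosome-bound KDM6A averaged 26.5 ± 2.28 CPM in NPC, against 28.5 ± 4.96 CPM in ESC (SD, n = 3 each). KDM6A changed by -0.27 (adjusted p = 0.0739) in RNA and -0.09 (adjusted p = 0.723) on ribosomes. KDM6A passed as lower in RNA without ESC replicate 2, at -0.39 (adjusted p = 0.0260), or ESC replicate 3, at -0.19 (adjusted p = 0.0130).

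Neither flavin-dependent H3K4 demethylase passed in any comparison, while KDM5A, KDM5B and KDM5C rose in RNA. KDM1A (LSD1), the catalytic subunit of the CoREST complex, averaged in RNA 467 ± 8.56 CPM in NPC, against 514 ± 5.25 CPM in ESC. Ribosome-bound KDM1A averaged 297 ± 26.2 CPM in NPC, against 250.3 ± 49.8 CPM in ESC (SD, n = 3 each). KDM1A RNA was lower in every NPC library than in any ESC library, but its change of -0.14 ± 0.08 (adjusted p = 0.169) did not pass with all libraries and passed without ESC replicate 3, at -0.14 (adjusted p = 0.0380). KDM1B averaged in RNA 15.2 ± 1.16 CPM in NPC, against 17.1 ± 2.18 CPM in ESC (SD, n = 3 each), with overlap, for a change of -0.17 (adjusted p = 0.360), and of 0.22 (adjusted p = 0.598) in ribosome-bound RNA.

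KDM5A, a tri-methyl H3K4 demethylase that binds the retinoblastoma protein, stood in RNA at 167, 169.8 and 183 CPM in NPC, against 101, 97.1 and 143 CPM in ESC. Ribosome-bound KDM5A stood at 174, 187 and 174 CPM in NPC, against 53.4, 22.98 and 42.1 CPM in ESC, without overlap in either. KDM5A rose by 0.61 ± 0.16 (adjusted p = 0.0116) in RNA, by 2.16 ± 0.27 (adjusted p = 3.62e-05) in ribosome-bound RNA and by 1.51 ± 0.33 (adjusted p = 0.00197) in the ratio, and the RNA call ended without ESC replicate 1 or 2 (0.47 to 0.49, adjusted p = 0.0573 to 0.0744). KDM5B averaged in RNA 990.5 ± 17.01 CPM in NPC, against 696 ± 106 CPM in ESC, without overlap. Ribosome-bound KDM5B averaged 396 ± 49.5 CPM in NPC, against 292 ± 114 CPM in ESC (SD, n = 3 each), with overlap. KDM5B rose by 0.51 ± 0.12 (adjusted p = 0.00704) in RNA, which did not pass without ESC replicate 1, at 0.45 (adjusted p = 0.0515), and changed by 0.44 (adjusted p = 0.200) in ribosome-bound RNA. KDM5C, a gene of X-linked intellectual disability, averaged in RNA 288 ± 10.6 CPM in NPC, against 213 ± 35.3 CPM in ESC. Ribosome-bound KDM5C averaged 205 ± 5.98 CPM in NPC, against 85.3 ± 20.6 CPM in ESC (SD, n = 3 each). KDM5C rose by 0.43 ± 0.13 (adjusted p = 0.0235) in RNA, 1.26 ± 0.21 (adjusted p = 3.13e-04) on ribosomes and 0.77 ± 0.25 (adjusted p = 0.0199) in the ratio. Any NPC replicate left out ended its RNA call (0.41 to 0.46, adjusted p = 0.0563 to 0.0831), and RNA ESC replicate 1, RNA NPC replicate 3 or ribosome-bound ESC replicate 3 left out ended the ratio's (0.71 to 0.76, adjusted p = 0.0500 to 0.0535). KDM5D, the Y-linked copy of KDM5C, is counted with the family and its levels are not reported.

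KDM2A and KDM2B remove H3K36 di-methylation and bind unmethylated CpG islands, KDM2B as part of a Polycomb complex, and both rose on ribosomes. KDM2A stood in RNA at 220.2, 216 and 208 CPM in NPC, against 202, 186 and 191 CPM in ESC. Ribosome-bound KDM2A stood at 104, 105 and 112 CPM in NPC, against 37.4, 18.2 and 39.4 CPM in ESC. KDM2A changed by 0.15 (adjusted p = 0.169) in RNA, passing without ESC replicate 3, at 0.15 (adjusted p = 0.0405), by 1.74 ± 0.26 (adjusted p = 1.39e-04) in ribosome-bound RNA and by 1.54 ± 0.29 (adjusted p = 5.82e-04) in the ratio. KDM2B stood in RNA at 344, 351 and 323 CPM in NPC, against 286, 278 and 230.1 CPM in ESC. Ribosome-bound KDM2B stood at 652, 666 and 661 CPM in NPC, against 218, 113 and 165 CPM in ESC, NPC being higher in every library. KDM2B rose by 0.36 ± 0.11 (adjusted p = 0.0232) in RNA, a call that any NPC replicate left out ended (0.34 to 0.40, adjusted p = 0.0504 to 0.0909), by 1.99 ± 0.26 (adjusted p = 4.34e-05) in ribosome-bound RNA and by 1.58 ± 0.28 (adjusted p = 3.45e-04) in the ratio.

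KDM3 enzymes remove H3K9 methylation, and KDM4 enzymes that of H3K9 and H3K36. In RNA 1 of 2 KDM3 members rose, and 2 of the 4 KDM4 members tested rose and 1 fell, beside 26.4% of all genes higher and 26.2% lower. KDM3A, a hypoxia-responsive enzyme, averaged in RNA 137 ± 9.21 CPM in NPC, against 48.8 ± 12.7 CPM in ESC. Ribosome-bound KDM3A averaged 93.1 ± 7.36 CPM in NPC, against 40.1 ± 12.95 CPM in ESC (SD, n = 3 each), without overlap. KDM3A rose by 1.49 ± 0.18 (adjusted p = 2.84e-04) in RNA and 1.20 ± 0.24 (adjusted p = 0.00115) in ribosome-bound RNA, and its ratio changed by -0.32 (adjusted p = 0.435). KDM3B averaged in RNA 532 ± 2.43 CPM in NPC, against 435 ± 63.8 CPM in ESC (SD, n = 3 each), without overlap, and changed by 0.29 (adjusted p = 0.0636), which passed with the replicate block at 0.30 (adjusted p = 0.0476), with limma-voom at 0.30 (adjusted p = 0.0468) and without ESC replicate 3 at 0.41 (adjusted p = 8.22e-08). On ribosomes KDM3B changed by 0.04 (adjusted p = 0.899).

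KDM4B stood in RNA at 195, 200.2 and 181 CPM in NPC, against 79.3, 79.02 and 49.1 CPM in ESC. Ribosome-bound KDM4B stood at 383, 350.1 and 361 CPM in NPC, against 73.5, 36.9 and 69.9 CPM in ESC. Every NPC library was above every ESC library in both assays, with KDM4B log2 fold changes of 1.47 ± 0.18 (adjusted p = 3.28e-04) in RNA, 2.59 ± 0.26 (adjusted p = 8.29e-06) in ribosome-bound RNA and 1.06 ± 0.31 (adjusted p = 0.0125) in the ratio. Its relative KDM4C averaged in RNA 31.9 ± 0.642 CPM in NPC, against 72.02 ± 7.98 CPM in ESC. Ribosome-bound KDM4C averaged 24.7 ± 5.05 CPM in NPC, against 36.7 ± 14.3 CPM in ESC (SD, n = 3 each). KDM4C fell in RNA, with a log2 fold change of -1.17 ± 0.12 (adjusted p = 9.81e-05), and its ribosome-bound change of -0.60 (adjusted p = 0.0995) passed without ESC replicate 2, at -0.89 (adjusted p = 1.25e-04). KDM4A averaged in RNA 108 ± 2.30 CPM in NPC, against 122 ± 8.40 CPM in ESC. Ribosome-bound KDM4A averaged 26.6 ± 2.53 CPM in NPC, against 17.2 ± 10.7 CPM in ESC (SD, n = 3 each). KDM4A changed by -0.17 (adjusted p = 0.170) in RNA and 0.59 (adjusted p = 0.203) on ribosomes, and its RNA passed as lower without ESC replicate 3, at -0.19 (adjusted p = 0.0106).

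KDM4D, KDM4E and KDM4F are close relatives of these enzymes, of which KDM4D is known from testis. KDM4D averaged in RNA 6.82 ± 0.804 CPM in NPC, against 3.26 ± 0.0644 CPM in ESC (SD, n = 3 each) and rose by 1.06 ± 0.16 (adjusted p = 7.77e-04), and its ribosome-bound counts, 24 in NPC and 27 in ESC over 3 libraries each, were too few to be tested. KDM4E had 4 RNA counts in NPC and 0 in ESC over all libraries, and KDM4F had 7 in NPC and 1 in ESC. No difference was detectable for either at this depth.

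PHF2, PHF8 and KDM7A carry a PHD finger that binds tri-methylated H3K4 beside a JmjC domain, and remove mainly H3K9 di-methylation and, for KDM7A, H3K27 methylation. PHF2 stood in RNA at 54.9, 58.05 and 50.1 CPM in NPC, against 38.7, 37.1 and 27.7 CPM in ESC. Ribosome-bound PHF2 stood at 84.2, 76.1 and 74.97 CPM in NPC, against 20.1, 9.54 and 14.3 CPM in ESC, NPC being the higher in every library. PHF2 rose by 0.66 ± 0.15 (adjusted p = 0.00704) in RNA, by 2.40 ± 0.25 (adjusted p = 1.08e-05) in ribosome-bound RNA and by 1.69 ± 0.29 (adjusted p = 2.96e-04) in the ratio. PHF8, a gene of X-linked intellectual disability, stood in RNA at 106, 105 and 101 CPM in NPC, against 119, 113 and 104 CPM in ESC, with overlap. Ribosome-bound PHF8 stood at 198, 195 and 201 CPM in NPC, against 82.95, 39.5 and 74.7 CPM in ESC, without it. PHF8 changed by -0.11 (adjusted p = 0.376) in RNA, passing as lower without ESC replicate 3 at -0.15 (adjusted p = 0.0328), by 1.58 ± 0.26 (adjusted p = 2.41e-04) in ribosome-bound RNA and by 1.64 ± 0.28 (adjusted p = 3.13e-04) in the ratio.

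KDM7A averaged in RNA 41.6 ± 1.18 CPM in NPC, against 44.9 ± 10.96 CPM in ESC. Ribosome-bound KDM7A averaged 25.5 ± 7.19 CPM in NPC, against 14.4 ± 6.01 CPM in ESC (SD, n = 3 each), with overlap in both. Its ribosome-bound change of 0.78 ± 0.32 (adjusted p = 0.0506) lay just beyond the threshold, and passed without ESC replicate 3, at 1.10 (adjusted p = 0.0215), or NPC replicate 3, at 0.96 (adjusted p = 0.0459). KDM8, a JmjC hydroxylase whose histone target is disputed, was the eraser whose ratio fell. KDM8 averaged in RNA 14.1 ± 0.953 CPM in NPC, against 9.14 ± 1.47 CPM in ESC, NPC being the higher throughout. Ribosome-bound KDM8 averaged 5.41 ± 0.980 CPM in NPC, against 8.07 ± 2.28 CPM in ESC (SD, n = 3 each), NPC being the lower throughout. Its log2 fold change was 0.62 ± 0.16 (adjusted p = 0.0120) in RNA, which did not pass without NPC replicate 1, at 0.57 (adjusted p = 0.0550), and -0.58 (adjusted p = 0.157) in ribosome-bound RNA. It was -1.26 ± 0.34 (adjusted p = 0.00813) in the ratio.

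Writers were compared with erasers by the mean log2 CPM of the 28 writers minus that of the 19 erasers that passed the filter in both assays. In RNA this difference was -0.68, -0.67 and -0.67 in the NPC libraries, against -0.44, -0.37 and -0.34 in the ESC libraries. The groups did not overlap, and the difference of the means, NPC minus ESC, was -0.29. In ribosome-bound RNA it was -0.51, -0.50 and -0.54 in NPC, against -0.73, -0.65 and -0.90 in ESC, which is 0.25 higher in NPC. With the median over members in place of the mean, the difference between states was -0.054 in RNA and 0.150 in ribosome-bound RNA, and the NPC and ESC libraries then overlapped in both assays. The size of the difference within a state also reflects gene length, so only its change between states is compared. Over all protein-coding genes the ribosome-bound change itself moved with genomic span, from a median of -0.47 for the shortest to 0.50 for the longest. The part of span in the change of writers minus erasers was not tested. No test was made of the difference between writers and erasers.

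Summed levels of both classes were higher in NPC. The 28 writers summed to 3833, 3848 and 3844 CPM in NPC RNA, against 3585, 3506 and 3623 CPM in ESC RNA. The 19 erasers summed to 4062, 4033 and 4028 CPM in NPC RNA, against 3195, 2998 and 3303 CPM in ESC RNA. On ribosomes, writers summed to 3003, 3145 and 3078 CPM in NPC, against 1286, 771 and 1121 CPM in ESC, and erasers to 2881, 3063 and 2977 CPM in NPC, against 1612, 911 and 1454 CPM in ESC. ESC replicate 2 was the lowest library for both classes, and the NPC libraries stayed above all ESC libraries in each of these 4 sums.

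**Figure D4:**
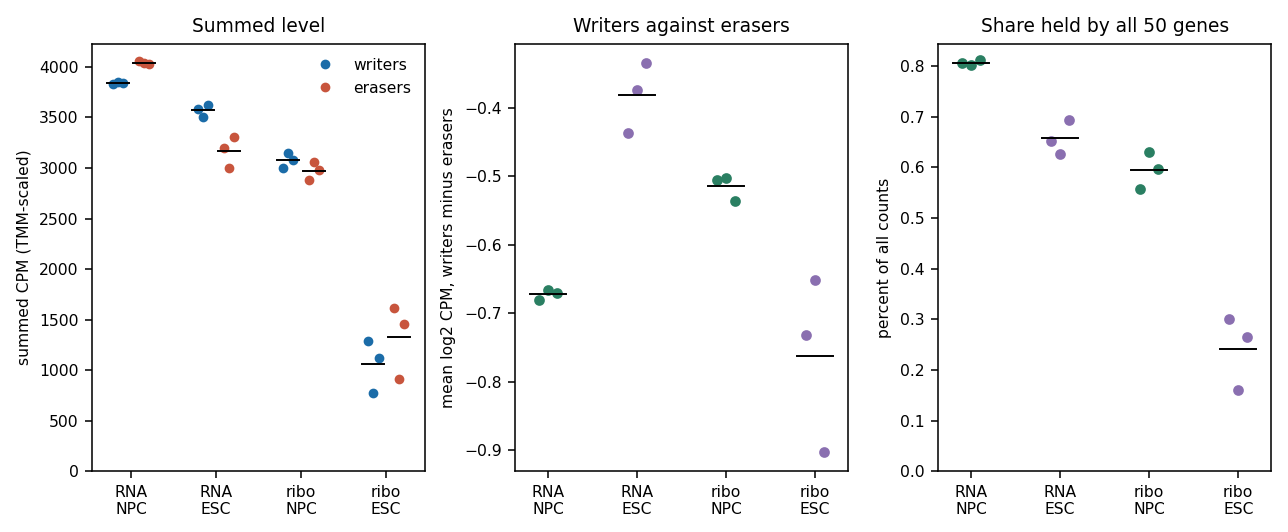
Summed CPM of the 28 writers and 19 erasers in each library (left), mean log2 CPM of writers minus erasers (middle) and the percentage of all counts held by the 50 genes (right), by assay and cell state, with lines at means of 3 libraries. NPC lies above ESC in every sum and share, and the difference of writers and erasers is lower in NPC in RNA and higher in NPC in ribosome-bound RNA.

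The members are long genes, and the ribosome-bound comparison moved with gene span over the whole table. The genomic span of the members tested on ribosomes had a median of 68.4 kb, against 33.9 kb over the 11106 protein-coding genes tested. In 4 equal groups of genes from short to long span, a split chosen after seeing the data, the median ribosome-bound log2 fold change of all these genes was -0.47, -0.13, 0.07 and 0.50, and that of the members was -0.07 (3 genes), 0.62 (9 genes), 1.25 (14 genes) and 1.81 (21 genes). The median change of the ratio ran from -0.53 to 0.57 over the same groups for all genes and from 0.06 to 1.54 for the members. Among the longest genes, in the fourth group, 45.1% of all genes were called higher in ribosome-bound RNA, where 14 of the 21 members were. In RNA the median over all genes ran from 0.03 for the shortest genes to -0.12 for the longest. The part of gene length in the members' ribosome-bound rise was not tested, and transcript and coding lengths were not used here.

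**Figure D5:**
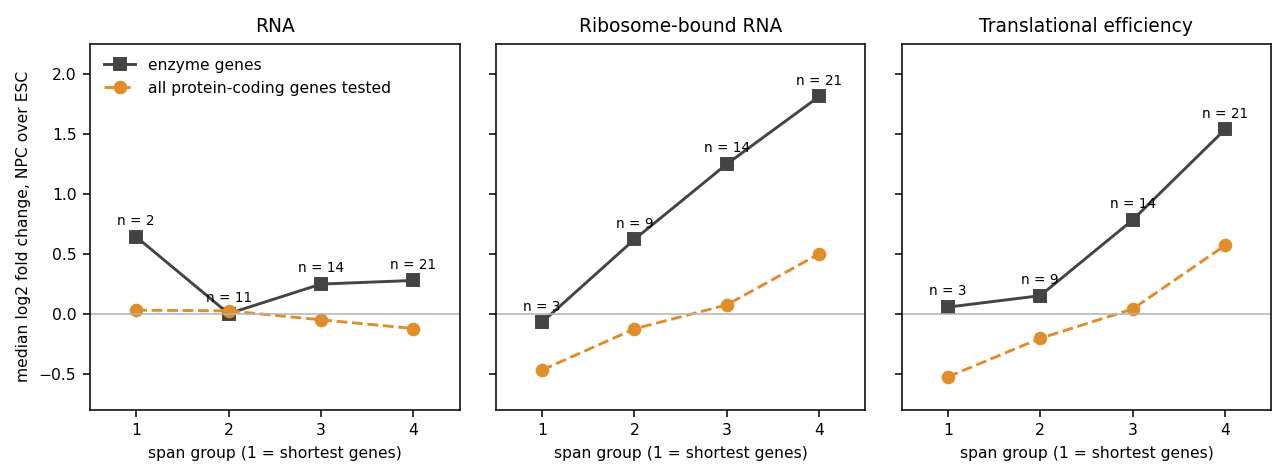
Median log2 fold change, NPC over ESC, by group of genomic span (4 equal groups, 1 with the shortest genes), for the members (squares, with their number) and for all protein-coding genes tested (circles), in each comparison. In ribosome-bound RNA and in the ratio both lines climb with span, and the members lie above all genes in each group.

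Partners of the enzymes were followed from lists of their complexes. The background for the counts of each list is 26.4% of all genes higher and 26.2% lower in RNA. In ribosome-bound RNA it is 31.6% higher and 30.3% lower. Of the COMPASS subunits that hold the H3K4 writers, 14 of 15 were tested on ribosomes, where 4 rose and 6 fell, and in RNA 2 rose and 5 fell. BOD1L1, a SETD1A partner, fell in RNA, with -0.77 ± 0.16 (adjusted p = 0.00396), and rose in ribosome-bound RNA by 2.93 ± 0.24 (adjusted p = 1.79e-06) and in the ratio by 3.66 ± 0.30 (adjusted p = 9.97e-07). In ribosome-bound RNA NCOA6, a subunit with KMT2C and KMT2D, rose by 2.14 ± 0.23 (adjusted p = 1.24e-05), while the core subunit ASH2L fell, with -1.28 ± 0.19 (adjusted p = 1.45e-04). PAGR1 rose in RNA (0.62, adjusted p = 0.00573) and fell on ribosomes (-1.12, adjusted p = 0.0323), a fall that did not pass without ESC replicate 1 or NPC replicate 1 or 3 of that assay (-0.98 to -0.83, adjusted p = 0.117 to 0.133). With the replicate block it did not pass either, at -1.16 (adjusted p = 0.0630). PAXIP1 (-0.86, adjusted p = 0.00108) and the chromatin-bound factor PSIP1 (-0.77, adjusted p = 0.00243) fell in RNA. The median of these subunits was -0.26 in ribosome-bound RNA, and that of the 6 H3K4 writers was 1.88.

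Of the KDM1A partners, 8 of 11 tested rose and none fell in ribosome-bound RNA (0 also at an unadjusted p under 0.05 in edgeR and by DESeq2 and limma-voom), with a median of 0.83, while in RNA 4 of 14 rose and 4 fell. PHF21A, a reader of unmethylated H3K4, rose by 0.93 ± 0.11 (adjusted p = 2.80e-04) in RNA and by 2.91 ± 0.26 (adjusted p = 3.30e-06) on ribosomes. INSM1 and GFI1 are transcription factors that bring KDM1A to DNA, and INSM1 RNA fell, with -3.54 ± 0.31 (adjusted p = 4.58e-05), while GFI1 RNA rose, with 2.88 ± 0.67 (adjusted p = 0.00754). GSE1 fell in RNA (-1.02, adjusted p = 1.41e-04), while its ribosome-bound RNA (0.82, adjusted p = 0.0103) and its ratio (1.79, adjusted p = 1.13e-04) rose. RCOR3, a CoREST protein, rose on ribosomes (1.70, adjusted p = 9.35e-05).

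Of the 13 H3K9 partners and readers, none rose (0 also at an unadjusted p under 0.05 in edgeR and by DESeq2 and limma-voom) and 2 fell in RNA, and 6 rose and 1 fell in ribosome-bound RNA. The fallen RNAs were CBX3, a heterochromatin protein (-0.90, adjusted p = 0.00722), and MPHOSPH8, the HUSH reader of H3K9 methylation (-0.76, adjusted p = 0.00432), whose ribosome-bound RNA rose (1.54, adjusted p = 0.00131). ATF7IP, which stabilises SETDB1, rose on ribosomes (1.50, adjusted p = 9.52e-05). TRIM28, the corepressor that brings SETDB1 to retroelements, fell on ribosomes (-1.02, adjusted p = 0.0242), which did not pass without ESC replicate 1 or 3 or NPC replicate 1 or 3 (-1.08 to -0.77, adjusted p = 0.0613 to 0.115). The replicate block ended this call too, at -0.97 (adjusted p = 0.0810).

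The list for DOT1L held MLLT genes and the AFF and ELL elongation factors, not all of which need be partners of DOT1L itself. Of its genes, 7 of 9 tested rose in ribosome-bound RNA, with a median of 2.00. None fell, nor did any at an unadjusted p under 0.05 in edgeR or by DESeq2 or limma-voom. MLLT3 (AF9) rose by 0.75 ± 0.16 (adjusted p = 0.00565) in RNA and 2.43 ± 0.41 (adjusted p = 3.02e-04) on ribosomes, and MLLT1 (ENL) by 2.08 ± 0.21 (adjusted p = 7.64e-06) on ribosomes. MLLT6 fell in RNA (-0.88, adjusted p = 0.00205), while its ribosome-bound RNA rose (1.68, adjusted p = 9.63e-05). The ratios of MLLT6 (2.51, adjusted p = 5.21e-06) and ELL2 (2.01, adjusted p = 4.96e-04) rose. AFF3 RNA fell (-1.54, adjusted p = 0.00106), and AFF2 RNA rose (0.45, adjusted p = 0.0153), which did not pass without ESC replicate 1 or 2 or NPC replicate 2 or 3 (0.34 to 0.45, adjusted p = 0.0619 to 0.0712).

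Of the readers of H3K36 and H4K20 methylation, 5 of 11 tested rose and 2 fell in ribosome-bound RNA, and 2 of 12 rose and 4 fell in RNA. L3MBTL1, a reader of H4K20 methylation, rose in RNA (1.56, adjusted p = 5.30e-05), as did PHF1 (1.16, adjusted p = 7.65e-04), while PHF19, a Polycomb accessory protein like PHF1, fell in RNA (-1.29, adjusted p = 5.65e-04) and on ribosomes (-2.16, adjusted p = 3.77e-05). The ratio of PHF19 fell too (-0.94, adjusted p = 0.0250), which did not pass without RNA NPC replicate 2 or ribosome-bound NPC replicate 2 or 3 (-0.96 to -0.85, adjusted p = 0.0516 to 0.0597). That fall also did not pass with no filter on low counts, at -0.90 (adjusted p = 0.0570). ZMYND11 and BRPF1 rose on ribosomes (2.31, adjusted p = 5.43e-06, and 1.82, adjusted p = 1.14e-04), and MORF4L1 fell there (-1.91, adjusted p = 7.05e-06). ORC1, the origin protein that binds di-methylated H4K20, fell in RNA (-0.65, adjusted p = 0.00158).

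Enzymes of lysine methylation whose names fall outside the symbols used had 5 of 16 higher and 2 lower in RNA, and 5 of 15 higher and 3 lower in ribosome-bound RNA. The shares higher, 31.25% in RNA and 33.3% in ribosome-bound RNA, lay near those of all genes, 26.4% and 31.6%. The shares lower were 12.5% in RNA and 20% in ribosome-bound RNA, beside 26.2% and 30.3% of all genes. PRDM16, known from neural stem cells, rose by 2.66 ± 0.18 (adjusted p = 1.19e-05) in RNA and 5.19 ± 0.37 (adjusted p = 7.98e-07) on ribosomes. EZH1, an H3K27 writer, rose by 1.16 ± 0.11 (adjusted p = 7.54e-05) in RNA and 2.68 ± 0.32 (adjusted p = 2.55e-05) on ribosomes. EZH2, the other H3K27 writer, named here outside the rule after its values were seen, changed by -0.24 (adjusted p = 0.0929) in RNA and rose by 1.46 (adjusted p = 5.49e-05) on ribosomes. JMJD1C (-1.40, adjusted p = 3.47e-04) and RIOX2 (-1.33, adjusted p = 2.26e-04) fell in RNA, and RIOX2 (-1.70, adjusted p = 4.24e-04) and RIOX1 (-1.33, adjusted p = 4.73e-04) fell on ribosomes. In the ratio PRDM2 rose (1.66, adjusted p = 4.30e-04), and SMYD5 fell (-0.68, adjusted p = 0.0432), which did not pass with 7 of 12 libraries left out in turn (-0.74 to -0.52, adjusted p = 0.0606 to 0.122). The SMYD5 call also ended with the replicate block, at -0.69 (adjusted p = 0.0551), and with no filter on low counts, at -0.65 (adjusted p = 0.100).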

How the data were processed

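The authors deposited raw counts for each gene symbol, without normalization, in 1 table with a column per library and no unused column. Per the submitters' processing notes, featureCounts 1.6.4, STAR 2.7.1a, Bowtie 1.2 and cutadapt 1.18 were among the tools and GRCh38 and hg38 were the builds, named there with no role or order. The sources used here do not give the annotation, whether counting used strand, or how multi-mapped reads were handled, and 27 of 50 members overlap another gene of the table, which makes the share of reads of such genes uncertain.

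Counts were scaled by TMM, filtered with filterByExpr and tested in edgeR 4.0.16 (R 4.3.3) by the quasi-likelihood F test with Benjamini-Hochberg adjustment over all genes and a threshold of 0.05, in each assay and, for the ratio, as an interaction over all 12 libraries. Each standard error is the size of the log2 fold change divided by the square root of F. CPM are TMM-scaled. Mean log2 CPM used a prior count of 2, and ratios a pseudocount of 0.5 CPM. The scripts were tested on simulated counts. Alternatives used relative log expression or upper-quartile scaling, other filters, DESeq2 1.42.0, limma-voom (limma 3.58.1), the replicate number as a block, a fit over all 12 libraries, and each library left out. Leaving out both libraries that stand apart was added after seeing the data.

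In RNA the deviations of libraries with the same replicate number in NPC and ESC correlated at 0.42, 0.29 and 0.62 over 10271 genes. ESC replicate 2 and NPC replicate 1 correlated at 0.44. The numbers, which come from the sample titles, may thus pair the RNA libraries of replicate 3, but replicates 1 and 2 could not be told apart. Blocked values stand beside the member results they change. No 2 libraries of a group agreed within sampling noise (chi-square per degree of freedom of 3.76 or more).

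The members and all lists were chosen with earlier results of these data known. Every member is named. Members past the threshold with a log2 fold change of at least 1 in size, and 15 well-studied enzymes whatever their result, made 39. The 25 with the largest change are given in every library and the other 14 by group means. Of partners, the 2 largest rises and falls of each list and comparison could be named. Promoters and spans came from RefSeq, GRCh38.p14. A count of 3 in a library equals 0.0854 to 0.154 CPM in RNA and 0.674 to 1.24 CPM on ribosomes.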

Additional observations from a re-analysis of the deposited data

How the results depend on the processing

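Counts of calls stayed within 1.5 times of those reported, other than those given in the next sentences. The number of writers lower in RNA was 1 in the fit over all 12 libraries. Erasers lower in ribosome-bound RNA numbered 1 with no filter on low counts and in the fit over all 12 libraries. In the ratio, 1 writer was lower with no filter, with limma-voom and with the replicate block, and 2 erasers were lower with relative log expression scaling, upper-quartile scaling, the filter of 1 CPM and DESeq2. With RNA ESC replicate 3 and ribosome-bound ESC replicate 2 both left out, 8 members, 5 of them erasers, and 3603 of all genes were lower in the ratio.

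With each library left out in turn, members lower in RNA ranged from 2 to 12, writers higher from 5 to 15, writers lower from 1 to 7 and erasers lower from 1 to 5. The highest of each came without ESC replicate 3, which also turned the sign of 3 RNA changes that then passed. Over these fits KMT2C ranged from -0.17 to 0.15, SETD1A from -0.16 to 0.094 and SETD2 from -0.17 to 0.21. In ribosome-bound RNA, members lower ranged from 3 to 5 and erasers lower from 0 to 1. In the ratio, members lower ranged from 1 to 5, writers lower from 0 to 3 and erasers lower from 1 to 2, and all genes lower from 1735 to 3603 with the fit without both libraries included. The cause of these shifts was not tested.

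The change of writers minus erasers was -0.21 in RNA and 0.41 in ribosome-bound RNA without the genes that lack a settled histone target, and -0.054 in RNA and 0.150 in ribosome-bound RNA with medians, where NPC and ESC libraries overlapped.

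Over all alternatives, members' single values kept their side of the threshold in 591 of 658 cases in RNA, 627 of 644 in ribosome-bound RNA and 878 of 920 in the ratio. These cases also kept their direction where either fit passed, while a turn of sign that passed in neither fit was counted among them. In RNA the replicate numbers may pair for replicate 3, but ESC replicate 2 correlated at 0.44 with NPC replicate 1 and at 0.29 with NPC replicate 2. The reported tests used no block. With the replicate block the RNA calls of KMT2D, DOT1L and KDM3B changed, and those of no other member. The ribosome-bound libraries do not pair by number (correlations of -0.22, -0.31 and -0.0022), and there the block changed no member's call. In the ratio it ended the call of SETD9, at -1.32 (adjusted p = 0.0558). The fit over all 12 libraries ended the RNA calls of SETDB1, NSD3, SETD6, KDM5B and KDM2B. With no filter on low counts the RNA calls of SETDB1 and SETD6 and the ratio's call of SUV39H2 ended, while KMT2D and DOT1L passed in RNA, EHMT2, KDM4C and KDM7A in ribosome-bound RNA and KMT2B in the ratio. No filter also shifted the median of all genes by 0.158 in the ratio. Ribosome-bound depth limits members with few counts, such as SETDB2 (12 counts in ESC), KMT5A (16) and SETD7 (22), which passed the filter through the NPC libraries alone.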
